A study of Mus musculus with 6 samples.

Results

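Tetraspanins are surface proteins that cross the membrane 4 times and gather integrins, proteases and receptors into patches of the membrane. The L6 proteins, encoded by the Tm4sf genes, have the same number of crossings but belong to a separate family. The genes described here are those with the symbols Tspan or Tm4sf followed by a number, together with Cd9, Cd37, Cd53, Cd63, Cd81, Cd82, Cd151 and Upk1a. They were found by symbol in the annotation of the array, among rows that carry exactly 1 symbol. The rule names symbols and uses no signal, but the family was picked with earlier results of these data known, so its counts below are descriptions. There were 32 of them among 19938 genes, each with 1 row, and Tspan7 is not analysed here.

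Expression was measured on Affymetrix Mouse Gene ST arrays in the intestine of mouse embryos at E14.5, before villi form. The Klf5-deleted group (genotype Klf5D/D in the labels) and the control group (Klf5wt/wtShhEGFP/Cre+, thus wild-type for Klf5 and carrying the Cre allele) held 3 arrays each. The label of the deleted group names no Cre allele, so whether the groups also differ in it is not stated. Both were on a mixed strain background that was part C57Bl/6. Each array was hybridised with RNA pooled from 2 intestines, from a segment about 1.5 cm anterior to the cecum. The Cre allele of the control drives recombination where Shh is made, which in the gut is the epithelium, whereas the tissue as dissected also held muscle, mesenchyme, vessels and nerves. The labels do not say whether the pools came from separate litters, so a p value here measures only how far these pools differ, which may be technical. All values are log2 signals, and the signal of one gene cannot be set against that of another as an amount of RNA.

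Most tetraspanins are found in many cell types and sit in the plasma membrane, in late endosomes or in the vesicles that cells release. A few are typical of certain tissues, such as Tspan8 and Tspan1 in epithelia of the gut, the uroplakins Upk1a and Upk1b in the lining of the bladder, and Cd37 and Cd53 in leukocytes. The TspanC8 group, named for the cysteines of its large outer loop, binds the membrane protease ADAM10 and directs where it acts.

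The signal of Klf5 itself was 10.24, 10.49 and 10.34 in the 3 pools of the Klf5-deleted group, listed here and below in the order of their replicate numbers, and 11.55, 11.74 and 11.77 in the 3 control pools, a log2 fold change of −1.33 (SE 0.08, limma adjusted p = 9.62e-05). Over all rows of the table, the correlation of 2 arrays was 0.994 to 0.997 when they were of the same group and 0.989 to 0.993 when they were not. All 15 pan-epithelial marker genes and all 6 markers of intestinal epithelium (Cdx1, Cdx2, Vil1, Cdh17, Hnf4a and Isx) were lower in the Klf5-deleted arrays, with median log2 fold changes of −0.85 and −1.20. The log2 of the summed linear signals of the pan-epithelial markers lay between 14.35 and 14.60 in the Klf5-deleted pools and between 15.36 and 15.41 in the control pools. In RNA from whole tissue, fewer cells of a type and less RNA per cell cannot be told apart. Of the other cell types, 5 of 6 mesothelial markers were higher and 1 was lower, and 0 of 9 endothelial, 1 of 7 smooth muscle, 2 of 8 mesenchymal, 1 of 6 enteric neuron and glia, 0 of 5 red cell and 1 of 12 leukocyte markers passed the test. The pools also differed in sex: Xist, which is transcribed in female cells, ran from 5.89 to 6.47 in the Klf5-deleted pools and from 11.93 to 12.61 in the control pools. A male share estimated from 3 Y-linked genes was 95% to 103% in the Klf5-deleted pools and 0%, 47.1% and 40.8% in the control pools. Its scale took the mean of the Klf5-deleted pools as fully male and the lowest array as 0%. It is thus a relative measure and does not give the share of male embryos.

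Of the 32 genes, 9 were lower and 2 were higher in the Klf5-deleted intestine at a limma adjusted p under 0.05, with p values adjusted over all 19938 genes, and 21 did not pass. In either direction 17.5% of all genes passed. The genes that fell were Tm4sf5, Tm4sf20, Tspan8, Tspan1, Cd82, Upk1a, Tspan15, Cd9 and Tspan13, and those that rose were Tspan5 and Tspan18. Among all genes tested, 8.58% were lower and 8.95% were higher by the same rule, against 28.1% and 6.25% of the 32. By the same limma test 4 of the 32 genes fell at least 2-fold and 0 rose at least 2-fold. Among all genes 225 (1.13%) fell and 18 rose at least 2-fold, so changes of this size were mostly falls there too. The median log2 fold change of the 32 genes was −0.05, and that of all genes was 0.02. The groups did not overlap for 19 of the 32 genes, 12 of them lower and 7 higher, and for 36% of all genes, 15.9% lower and 20.1% higher. With each array centred on its median, 10 of the 32 genes were lower and 1 was higher, and among all genes 1767 were lower and 1216 higher, against 1711 and 1785 without centring.

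**Figure D1:**
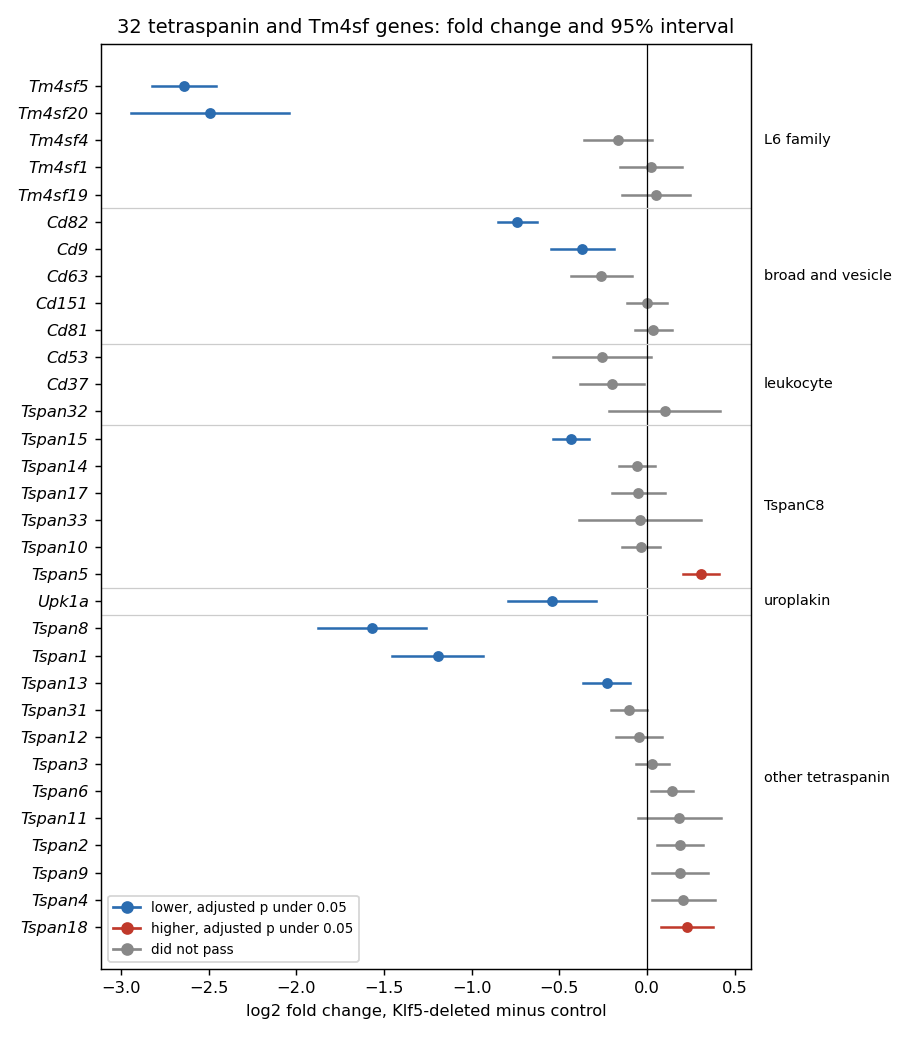
Log2 fold change (Klf5-deleted minus control) of the 32 tetraspanin and Tm4sf genes, with the 95% interval of limma's moderated variance as a bar, grouped by family or role, for 3 arrays per group. Tm4sf5, Tm4sf20, Tspan8 and Tspan1 lie below −1, Tspan5 and Tspan18 are the genes coloured as higher, and the intervals of most others reach or lie close to 0.

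The L6 family was split. Tm4sf5 and Tm4sf20 had the largest falls of all 32 genes, while Tm4sf4, Tm4sf1 and Tm4sf19 did not pass the test. Tm4sf5, which encodes an L6 protein of liver and gut epithelia, had signals of 9.21, 9.04 and 9.03 in the Klf5-deleted pools and of 11.76, 11.83 and 11.60 in the control pools. The highest Klf5-deleted array was thus more than 2 log2 units under the lowest control. The fall was 6.23-fold (log2 fold change −2.64, SE 0.08, limma adjusted p = 5.09e-06), which left 16% of the control signal. Tm4sf20, whose product acts on the cleavage of a membrane-bound transcription factor precursor, read 6.70, 7.55 and 7.22 against 9.53, 9.67 and 9.74 (Klf5-deleted against control, as in all such pairs). The Klf5-deleted arrays were more spread (SD 0.43) than the controls (SD 0.10), with replicate 1 lowest, and the groups were well apart. Tm4sf20 fell 5.63-fold (log2 fold change −2.49, SE 0.19, limma adjusted p = 0.000219).

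Tm4sf4, an L6 gene of liver and gut, had signals of 10.73, 10.83 and 10.94 in the Klf5-deleted pools and of 10.85, 11.06 and 11.09 in the control pools. The groups overlapped, and the log2 difference of −0.16 had a 95% interval from −0.36 to 0.03 (limma adjusted p = 0.235). Tm4sf1, an L6 gene of endothelial and tumour cells, differed by 0.02 (interval −0.15 to 0.20) and Tm4sf19 by 0.05 (interval −0.14 to 0.24). Each of these intervals lies far from the fold changes of Tm4sf5 and Tm4sf20.

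Among the true tetraspanins, both genes typical of gut epithelia fell at least 2-fold. Tspan8, a tetraspanin of digestive epithelia and of many carcinomas, had signals of 7.86, 8.33 and 8.38 in the Klf5-deleted pools and of 9.75, 9.69 and 9.83 in the control pools. All Klf5-deleted arrays were below all controls, with replicate 1 lowest. The fall was 2.97-fold (log2 fold change −1.57, SE 0.13, limma adjusted p = 0.00032). Tspan1, also found in secretory and digestive epithelia, read 6.69, 7.17 and 6.86 against 8.07, 8.11 and 8.13, and replicate 1 was again the lowest of the Klf5-deleted arrays. Its fall was 2.29-fold (log2 fold change −1.19, SE 0.11, limma adjusted p = 0.00053). Its control signals were above the array medians (7.81 to 7.89), and its Klf5-deleted signals were below them, in the lower part of the scale. Arrays can compress differences there. Tspan13 read 11.10, 11.22 and 11.21 against 11.33, 11.47 and 11.41 and fell by 0.23 (SE 0.06, limma adjusted p = 0.0338). Its groups did not overlap, but the gap was narrow and Tspan13 no longer passed when any one of 5 arrays was left out: Klf5-deleted array 1 (log2 change −0.19, adjusted p = 0.0837), Klf5-deleted array 2 (log2 change −0.25, adjusted p = 0.055), Klf5-deleted array 3 (log2 change −0.25, adjusted p = 0.07), control array 2 (log2 change −0.20, adjusted p = 0.115) or control array 3 (log2 change −0.23, adjusted p = 0.0989).

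**Figure D2:**
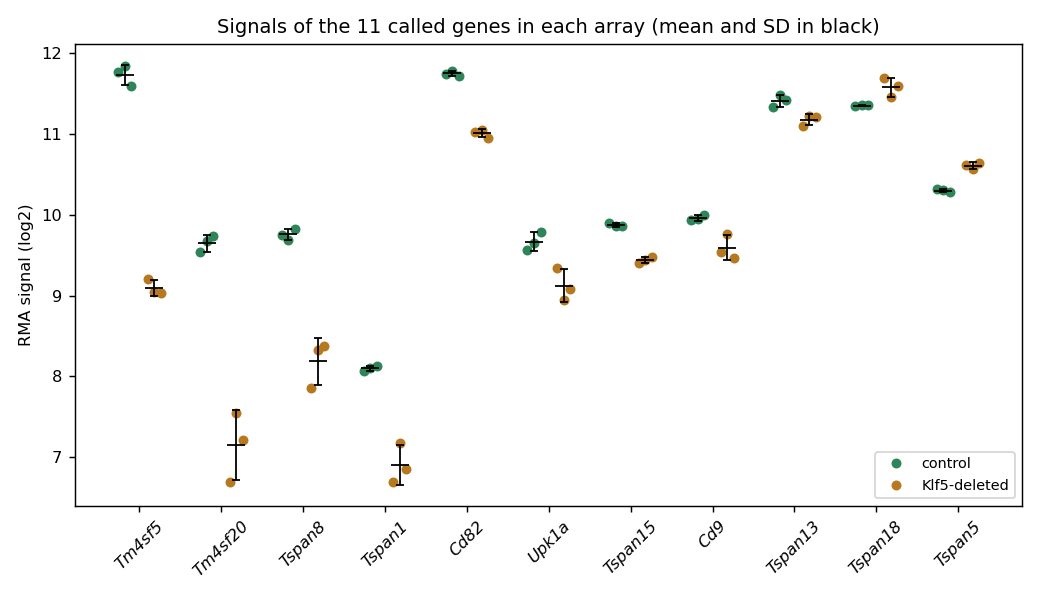
RMA signal (log2) of the 11 genes that passed the test in each of the 3 control and 3 Klf5-deleted arrays, with the mean and SD in black. The points of the 2 groups are farthest apart for Tm4sf5 and Tm4sf20, and the gaps between them are narrowest for Tspan13 and Tspan18.

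Promoters of the genes that fell at least 2-fold are shown with that of Tspan5, which rose, because KLF5 is a zinc-finger factor that binds GC-rich and CACCC-type sites. Sequences are the 250 bases before the annotated start, 5′ to 3′ on the strand of the gene, from RefSeq on GRCm38.p6. Of the 32 genes, 30 had an entry, and Tm4sf20 and Tspan18 had none. Capitals mark matches to CCNCNCCC on either strand. The window of Tm4sf5 is chr11:70505024-70505273 (plus strand), that of Tspan8 chr10:115817034-115817283 (plus strand), that of Tspan1 chr4:116167599-116167848 (minus strand) and that of Tspan5 chr3:138741958-138742207 (plus strand).
Tm4sf5: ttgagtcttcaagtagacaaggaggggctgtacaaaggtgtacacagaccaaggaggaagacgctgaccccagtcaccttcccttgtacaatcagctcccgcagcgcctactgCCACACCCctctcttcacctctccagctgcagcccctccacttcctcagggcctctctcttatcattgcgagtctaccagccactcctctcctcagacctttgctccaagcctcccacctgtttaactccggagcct
Tspan8: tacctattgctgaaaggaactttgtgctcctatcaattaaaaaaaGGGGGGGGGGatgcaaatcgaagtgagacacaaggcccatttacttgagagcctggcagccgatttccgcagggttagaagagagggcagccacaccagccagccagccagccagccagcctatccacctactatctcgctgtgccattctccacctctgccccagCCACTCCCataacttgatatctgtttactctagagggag
Tspan1: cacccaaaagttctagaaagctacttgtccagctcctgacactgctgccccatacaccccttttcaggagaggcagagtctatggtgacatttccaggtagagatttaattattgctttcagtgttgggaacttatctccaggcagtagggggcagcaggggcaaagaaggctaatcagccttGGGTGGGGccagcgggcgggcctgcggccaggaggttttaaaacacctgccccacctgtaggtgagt
Tspan5: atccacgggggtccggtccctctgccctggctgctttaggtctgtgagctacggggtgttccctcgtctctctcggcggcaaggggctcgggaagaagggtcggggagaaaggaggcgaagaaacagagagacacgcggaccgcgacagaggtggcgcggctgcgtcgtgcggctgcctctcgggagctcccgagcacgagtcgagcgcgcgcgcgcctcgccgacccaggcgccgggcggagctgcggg
The match of Tm4sf5, CCACACCC, ends 130 bases before the start, and that of Tspan1 lies on the other strand, GGGTGGGG, ending 60 bases before it. Tspan8 held CCACTCCC ending 32 bases before the start, and 3 further matches that overlap each other in a run of G. The Tspan5 window held no match, although 70.8% of its bases are G or C.

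By gene, counting any annotated start, a CCNCNCCC match was found for 8 of the 8 genes that fell and had an entry, for 12 of 21 genes that did not pass and for 0 of 1 that rose. Of all 27025 genes with an entry, 48.5% had one, as did 45.9% of all 32851 promoters. Genes with several starts have more chances of a match, and Cd82 had 4 starts. The windows with the most matches, counting overlapping ones, belonged to genes that did not pass. These were windows of Tspan9 (9 and 8 matches), Tspan17 (8) and Tspan14 (6). Of the genes that fell, Cd9 and Tspan8 had the most, at 4 each, and Tm4sf5 and Tspan1 had 1 each. A motif of hepatocyte nuclear factor 4, CAAAGNNCA, occurred in 0 of 30 genes against 6.29% of all genes, and the CDX motif TTTATG in 2 of 30 (Tm4sf4 and Upk1a) against 12.4%, on either strand. A match is a stretch of letters and does not show binding.

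The broadly expressed tetraspanins, some of which are standard surface markers of released vesicles, did not move as a group. Of 5, Cd82 and Cd9 fell and Cd63, Cd81 and Cd151 did not pass. Cd82, first known as a suppressor of metastasis that restrains integrin and growth factor receptor signalling, had signals of 11.02, 11.05 and 10.95 in the Klf5-deleted pools and of 11.74, 11.78 and 11.72 in the control pools. The arrays of each group lay close together, and the groups differed by 0.74 on the log2 scale (SE 0.05, limma adjusted p = 9.86e-05), a 1.67-fold fall. Cd9, a partner of integrins and of growth factor precursors, read 9.54, 9.76 and 9.47 against 9.93, 9.95 and 10.001 and fell by 0.37 (SE 0.08, limma adjusted p = 0.0169). Klf5-deleted replicate 2 stood closest to the controls. Cd9 no longer passed on leaving out Klf5-deleted array 3 (log2 change −0.31, adjusted p = 0.0502), control array 2 (log2 change −0.38, adjusted p = 0.0557) or control array 3 (log2 change −0.35, adjusted p = 0.0643).

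Cd63, the tetraspanin of late endosomes and lysosomes, read 11.26, 11.35 and 11.50 against 11.64, 11.70 and 11.55. The groups did not overlap and the log2 difference was −0.26 (SE 0.07), just outside the threshold (limma adjusted p = 0.0502). Cd63 passed in 7 of the 17 alternative settings, which include a threshold of 0.1. Among the 7 were leaving out Klf5-deleted array 3 (log2 change −0.33, adjusted p = 0.0287) and array medians centred (log2 change −0.28, adjusted p = 0.0217). On leaving out any other array it did not pass, with limma adjusted p values of up to 0.159. Cd81, which in lymphocytes forms a complex with the B cell co-receptor, read 12.89, 12.91 and 12.96 against 12.92, 12.88 and 12.85, with a difference of 0.04 and a 95% interval from −0.07 to 0.14. Cd151, the tetraspanin most tightly bound to laminin-binding integrins, read 11.18, 11.21 and 11.23 against 11.15, 11.20 and 11.27, and its interval ran from −0.12 to 0.11. The upper and lower bounds for Cd81 and Cd151 are thus well short of the fall of Cd82.

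Upk1a, the tetraspanin that pairs with uroplakin 2 in the plaques of bladder epithelium, had signals of 9.34, 8.95 and 9.08 in the Klf5-deleted pools and of 9.56, 9.65 and 9.79 in the control pools. It fell by 0.54 (SE 0.11, limma adjusted p = 0.0132), with Klf5-deleted replicate 1 closest to the controls, and it no longer passed on leaving out control array 3 (log2 change −0.48, adjusted p = 0.0514). Upk1b, its counterpart outside the rule for the 32 genes, went the other way: it read 10.89, 10.61 and 10.50 against 9.93, 9.78 and 9.55 and rose by 0.92 (SE 0.12, limma adjusted p = 0.00295). Upk1b is also among the 6 mesothelial markers, 5 of which were higher. The summed signal of those markers ran from 12.90 to 13.34 in the Klf5-deleted pools and from 12.21 to 12.63 in the control pools, and their part in the Upk1b signal was not tested.

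The 6 TspanC8 genes had 1 fall, 1 rise and 4 members that did not pass. Tspan15, which directs ADAM10 to N-cadherin, had signals of 9.41, 9.44 and 9.48 in the Klf5-deleted pools and of 9.90, 9.86 and 9.87 in the control pools and fell by 0.43 (SE 0.04, limma adjusted p = 0.000717). Tspan5, one of the members tied to ADAM10 and Notch signalling, read 10.62, 10.56 and 10.64 against 10.31, 10.30 and 10.28 and rose by 0.31 (SE 0.04, limma adjusted p = 0.00337). For both genes the arrays of a group lay within 0.1 of each other, so that these modest changes were several times the spread. The calls of Tspan15 and Tspan5 were kept on leaving out any of the 6 arrays.

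Tspan14, another TspanC8 gene, read 11.87, 11.85 and 11.84 against 11.95, 11.89 and 11.88, a difference of −0.06 (interval −0.16 to 0.04, limma adjusted p = 0.454). Tspan17 differed by −0.05 (interval −0.20 to 0.10) and Tspan10, known from pigment cells, by −0.03 (interval −0.14 to 0.07). Tspan33, found in red cell precursors and activated B cells, read 7.92, 8.47 and 8.42 against 8.26, 8.19 and 8.48, and its difference of −0.04 had a wider interval (−0.38 to 0.31). Klf5-deleted replicate 1 was the lowest of the 6 arrays for Tspan33 and for the summed red cell markers (10.93, against 11.14 to 12.27 in the others), a relation that was not tested. The protease partner of the group, Adam10, read 11.20, 11.22 and 11.23 against 11.19, 11.14 and 11.18, and its difference of 0.04 did not pass (limma adjusted p = 0.557).

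The 3 leukocyte tetraspanins did not pass. Cd53, found across leukocytes, read 8.40, 8.10 and 8.60 against 8.58, 8.73 and 8.57, a difference of −0.26 (SE 0.12, limma adjusted p = 0.196). Cd37, best known from B cells, read 7.35, 7.62 and 7.53 against 7.71, 7.78 and 7.62, a difference of −0.20 (SE 0.08, limma adjusted p = 0.134). Tspan32, a tetraspanin of blood cells, read 6.41, 6.97 and 6.82 against 6.71, 6.53 and 6.66 (difference 0.10, SE 0.13). All 3 pairs of groups overlapped. The 12 leukocyte markers had a median of −0.13, and the 1 that passed was Lyz2, which was lower.

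Of the remaining 9 tetraspanins, Tspan18 rose and 8 did not pass. Tspan18, a regulator of calcium entry in endothelium, had signals of 11.69, 11.46 and 11.59 in the Klf5-deleted pools and of 11.34, 11.35 and 11.36 in the control pools. The controls were within 0.02 of each other, and the rise of 0.23 (SE 0.06, limma adjusted p = 0.0478) was close to the threshold. Tspan18 no longer passed when any one of 5 arrays was left out: Klf5-deleted array 1 (log2 change 0.17, adjusted p = 0.102), Klf5-deleted array 3 (log2 change 0.22, adjusted p = 0.128), control array 1 (log2 change 0.22, adjusted p = 0.115), control array 2 (log2 change 0.23, adjusted p = 0.126) or control array 3 (log2 change 0.23, adjusted p = 0.116). It did not pass with array medians centred either (log2 change 0.21, adjusted p = 0.0932).

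Of these genes, Tspan2, Tspan9, Tspan4, Tspan6 and Tspan3 were also above the controls in all 3 Klf5-deleted arrays without passing. Tspan2, of oligodendrocytes and smooth muscle, differed by 0.19 (limma adjusted p = 0.0615) and passed on leaving out Klf5-deleted array 1 (log2 change 0.23, adjusted p = 0.0469). Tspan9, a tetraspanin of platelets, differed by 0.19 (adjusted p = 0.103), Tspan4, which builds the migrasomes left behind by moving cells, by 0.21 (adjusted p = 0.108), and Tspan6, which lies on the X chromosome, by 0.14 (adjusted p = 0.0996). Tspan6 passed with the lowest 50% of genes left out (limma adjusted p = 0.0438) and with an intensity trend and robust variance (limma adjusted p = 0.0331). With the male share as a covariate the Tspan6 difference was near 0 (log2 change −0.01, adjusted p = 0.967). No control pool had the male share of the Klf5-deleted pools, so that fit separates sex from genotype poorly. Tspan3, a partner of claudin 11 in oligodendrocytes, also did not overlap, at a difference of 0.03, and Tspan31 was lower in all Klf5-deleted arrays by 0.10 (adjusted p = 0.164). Tspan12, a co-receptor of Norrin and Frizzled 4 in retinal vessels, differed by −0.04 with an interval from −0.17 to 0.09, and Tspan11 differed by 0.19 (adjusted p = 0.281). The 5 members with the highest mean signals were Cd81, Tspan31, Tspan3, Tspan6 and Tspan14, and none of these passed the test.

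Because epithelial markers were lower throughout, the 11 genes that passed were also set against the mean log2 signal of the 15 pan-epithelial markers in the same array, a measure chosen after the values were seen. That mean was 10.22, 10.43 and 10.47 in the Klf5-deleted pools, and 11.26, 11.28 and 11.31 in the control pools. Relative to it, Tm4sf5 was at −1.01, −1.39 and −1.44 in the Klf5-deleted pools and at 0.51, 0.55 and 0.29 in the control pools, a difference of −1.73. Tm4sf20 differed by −1.58, Tspan8 by −0.66 and Tspan1 by −0.28, and for each of these 4 genes all Klf5-deleted arrays were below all controls. Their signals thus fell by more than the average epithelial marker, and for Tm4sf5, Tm4sf20 and Tspan8 by more than any of the 15, whose log2 fold changes ran from −1.52 (Krt19) to −0.36 (Krt18). For Tspan8 the margin over Krt19 was smaller than its SE of 0.13. The 6 markers of intestinal epithelium had a lower median log2 fold change (−1.20) than these 15 (−0.85). Of the 6, Cdh17 (−2.16) and Hnf4a (−1.97) fell more than Tspan8, and Vil1 (−1.46), Cdx1 (−0.94), Isx (−0.85) and Cdx2 (−0.62) fell less. Tm4sf5 and Tm4sf20 fell more than each of the 6. Relative to the pan-epithelial mean, Cd82 was at 0.80, 0.62 and 0.48 against 0.49, 0.50 and 0.40, and its groups overlapped (difference 0.17). Upk1a, Tspan15, Cd9 and Tspan13 fell by less than the marker mean, with differences of 0.37, 0.48, 0.54 and 0.68, and Tspan18 and Tspan5 were higher by 1.14 and 1.22. These values are a description with no test, since taking away a mean that is lower in every Klf5-deleted array moves each gene upward there.

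**Figure D3:**
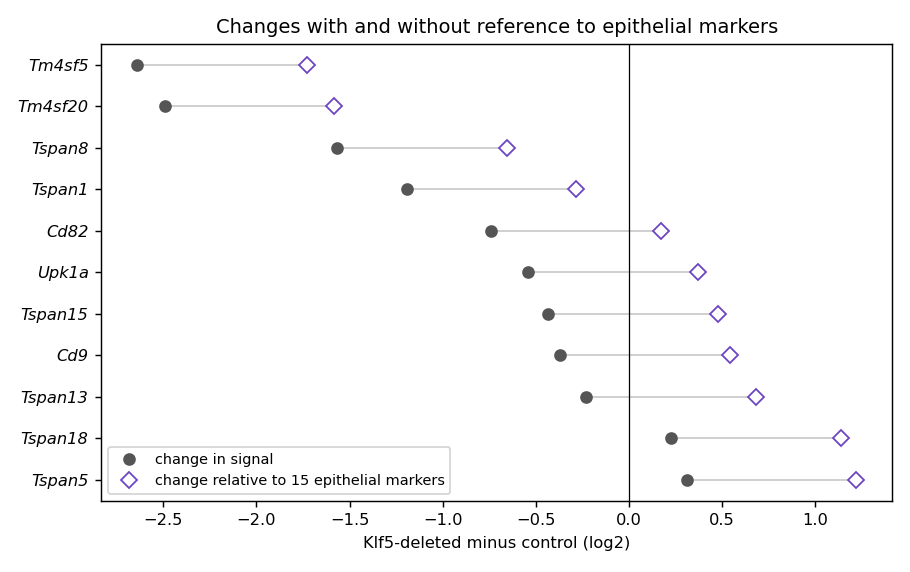
Difference between Klf5-deleted and control means (log2, 3 arrays per group) for the 11 genes that passed the test, as measured (filled circles) and relative to the mean of 15 epithelial markers in the same array (open diamonds). Tm4sf5, Tm4sf20, Tspan8 and Tspan1 stay below 0 on both scales, and the other falls cross 0 when read against the markers.

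Known partners of tetraspanins were read from the same fit. Of 33 partner genes, 10 were lower (30.3%) and 5 were higher (15.2%), against 8.58% and 8.95% of all genes, with a median of −0.01. Among laminin-binding integrins, Itgb4, a hemidesmosomal chain of an integrin bound by CD151, read 8.40, 8.27 and 8.31 against 8.87, 8.86 and 8.83 and fell by 0.53 (SE 0.05, limma adjusted p = 0.000488). Its alpha chain gene Itga6 differed by −0.16 (adjusted p = 0.0538), and Itga3, Itga7 and Itgb1 by 0.01 to 0.03, without passing. Of the immunoglobulin family that holds partners of CD9 and CD81, Igsf8 fell by 0.22 (adjusted p = 0.0195), Ptgfrn did not pass (−0.01), and Igsf3 rose by 0.30 (SE 0.05, adjusted p = 0.00792).

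The epithelial partners held the largest falls. Cldn7, a claudin found in complexes of EpCAM with tetraspanins, fell by 1.01 (SE 0.10), Cdh1, the gene of E-cadherin, by 0.94 (SE 0.10), and Met, the receptor of hepatocyte growth factor, by 0.89 (SE 0.07). Epcam fell by 0.61 (SE 0.07), Cd44 by 0.57 (SE 0.09) and Hbegf, the growth factor precursor held by CD9, by 0.34 (SE 0.05), with limma adjusted p values of at most 0.0054 for these 6 genes. Cldn7, Cdh1 and Epcam are also among the epithelial markers. Prkca, a kinase brought to tetraspanin complexes, read 9.88, 9.87 and 9.93 against 10.45, 10.50 and 10.49 and fell by 0.59 (SE 0.04, adjusted p = 0.000183). Pdcd6ip, which encodes the endosomal adaptor ALIX, fell by 0.18 (adjusted p = 0.027), while Sdcbp, the gene of the CD63 ligand syntenin, was at 0.02 and did not pass.

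Besides Igsf3 and Upk1b, the partners that rose were the membrane protease gene Mmp14 (0.23, SE 0.05, limma adjusted p = 0.0137), Cldn1 (0.38, SE 0.09, adjusted p = 0.0289) and Upk3b (0.50, SE 0.13, adjusted p = 0.0321). Upk3b is a mesothelial marker as well, and Upk2, the bladder partner of Upk1a, was at −0.32 and did not pass (adjusted p = 0.109). Of the 15 partner calls, 5 were lost in at least 1 of the fits that left out an array. Mmp14 no longer passed on leaving out control array 2 (log2 change 0.22, adjusted p = 0.0571). Upk3b did not on leaving out Klf5-deleted array 1 (log2 change 0.39, adjusted p = 0.0645), Klf5-deleted array 2 (log2 change 0.53, adjusted p = 0.0627), control array 2 (log2 change 0.51, adjusted p = 0.0871) or control array 3 (log2 change 0.39, adjusted p = 0.0919). Cldn1 did not on leaving out Klf5-deleted array 1 (log2 change 0.34, adjusted p = 0.0732), Klf5-deleted array 2 (log2 change 0.31, adjusted p = 0.0769), control array 1 (log2 change 0.42, adjusted p = 0.0521), control array 2 (log2 change 0.38, adjusted p = 0.0888) or control array 3 (log2 change 0.34, adjusted p = 0.1). Igsf8 did not on leaving out Klf5-deleted array 1 (log2 change −0.21, adjusted p = 0.0548), Klf5-deleted array 3 (log2 change −0.21, adjusted p = 0.0705), control array 1 (log2 change −0.22, adjusted p = 0.0587) or control array 2 (log2 change −0.22, adjusted p = 0.0727), nor Pdcd6ip on leaving out Klf5-deleted array 1 (log2 change −0.17, adjusted p = 0.0744), Klf5-deleted array 2 (log2 change −0.18, adjusted p = 0.0633), Klf5-deleted array 3 (log2 change −0.19, adjusted p = 0.0637), control array 2 (log2 change −0.17, adjusted p = 0.0937) or control array 3 (log2 change −0.17, adjusted p = 0.0848). The other 10 partner genes passed in each of the 6 fits that left out an array.

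**Figure D4:**
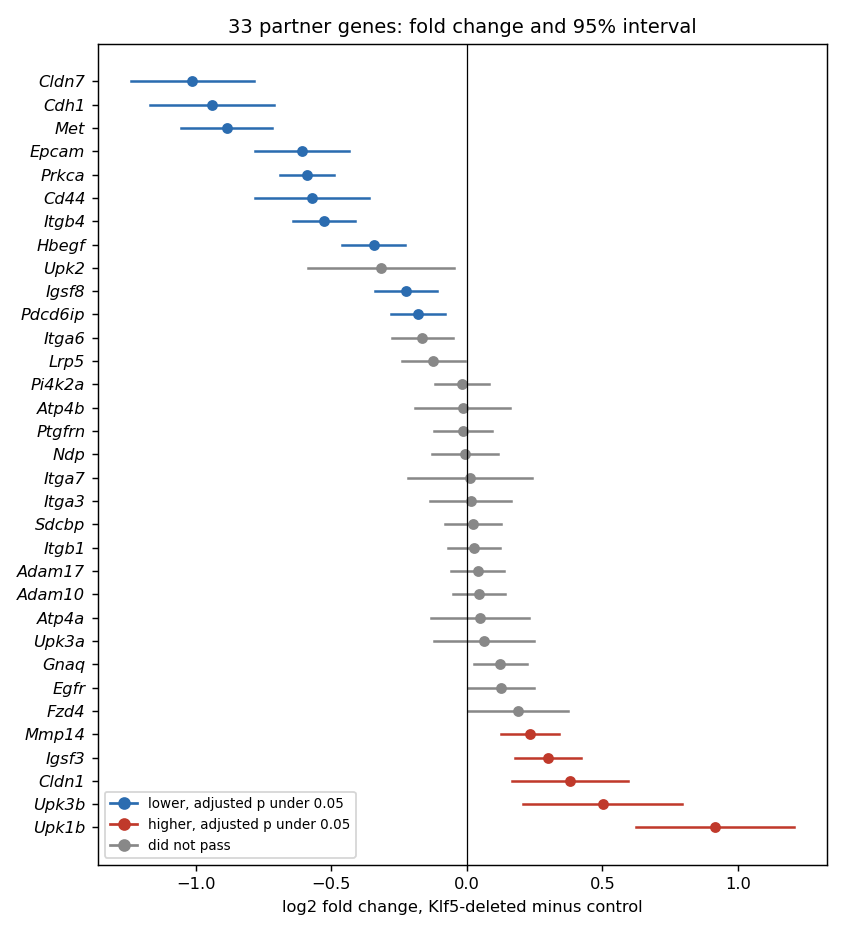
Log2 fold change (Klf5-deleted minus control, 3 arrays per group) of 33 genes that encode known partners of tetraspanins, with 95% intervals. The lower end is held by Cldn7, Cdh1, Met and Epcam, the upper end by Upk1b and Upk3b, and Adam10, Adam17, Itga3 and Itgb1 have intervals that include 0.

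The calls of Tm4sf5, Tm4sf20, Tspan8, Tspan1, Cd82, Tspan15 and Tspan5 held on leaving out any of the 6 arrays. With the estimated male share in the fit as a covariate, all 11 genes that passed kept their sign, and of these Tm4sf5 passed (log2 change −2.64, adjusted p = 0.00896), whereas Tm4sf20 (log2 change −2.70, adjusted p = 0.123), Tspan8 (log2 change −1.47, adjusted p = 0.182), Tspan1 (log2 change −1.28, adjusted p = 0.175) and Cd82 (log2 change −0.78, adjusted p = 0.0842) did not. In that fit 0.416% of all genes passed. The other 6 genes did not pass in it either. No control pool had the male share of the Klf5-deleted pools.

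**Figure D5:**
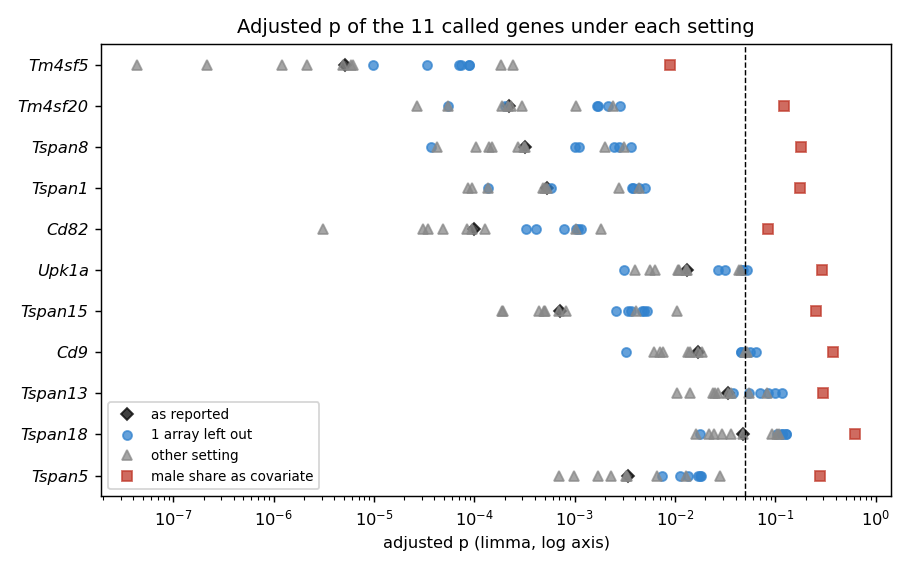
Limma adjusted p (log axis) of the 11 genes that passed the test, as reported and under each alternative setting, with the threshold of 0.05 as a dashed line. Tm4sf5 lies left of the line under every setting, 6 further genes cross it with the male share as a covariate and under no other setting, and Upk1a, Cd9, Tspan13 and Tspan18 cross it under further settings.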

How the data were processed

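The authors deposited log2 signals. Per the submitters' processing notes, these came from RMA (robust multi-array average) run in Expression Console 1.1, a method that removes background, equalises the distributions of the arrays and combines the probes of a transcript, so a shift shared by most genes would be lost. The genome build they used was not given in the sources used here. The table held 35557 rows. Rows with 1 gene symbol (21789) were kept, their symbols were brought up to date by gene ID from the RefSeq table for GRCm38.p6 (21698 matched), and the brightest row of each gene was used, which gave 19938 genes without a filter on level. The test was limma's moderated test (version 3.58.1, R 4.3.3) for the difference between groups, Klf5-deleted minus control, and p values were adjusted over all genes by Benjamini-Hochberg, with a threshold of 0.05. SE and 95% intervals are those of the moderated variance. The code was tested on simulated data. The genes and lists were chosen with earlier results of these data known. Members that passed were given with the value of every array. TspanC8 and leukocyte members, partners that passed and the 5 members with the highest mean were named, some by their difference alone. Arrays have no read depth, and 3 per group limits the precision. No protein sequences were used here. Alternatives are given in the closing section.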

Additional observations from a re-analysis of the deposited data

How the results depend on the processing

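Of the 17 alternatives, 0 reversed the sign of a call among the 32 genes. The number lower was 9 and lay between 6 and 9 when 1 array was left out, and the number higher was 2 and lay between 1 and 2. The number of partner genes called was 15 and lay between 10 and 13 when 1 array was left out. Of all genes, 10% to 13.8% passed when 1 array was left out, against 17.5% as reported. The number higher was 1 with the replicate block, with array medians centred and with all rows tested. In these settings 10.1%, 15% and 10.5% of all genes passed. It was 4 with the lowest 50% of genes left out, with an intensity trend and robust variance, and at a threshold of 0.1. There 36.1%, 20.5% and 24.1% of all genes passed. With the lowest 50% left out, 23 of the 32 genes were tested, and Tm4sf20 and Tspan1 were not among them. With the male share as a covariate 1 of the 32 genes was lower, 0 were higher and 0 partner genes passed. With the replicate number as a block 8 genes were lower, and Tspan13 and Tspan18 lost their calls. Over genes, the deviations of arrays with the same number were not positively correlated (correlations of −0.14, −0.27 and −0.03). Such a correlation, from so few arrays per group, cannot decide whether the numbers pair the arrays, and the labels do not say. With all rows tested 7 genes were lower, and Cd9 (log2 change −0.37, adjusted p = 0.0521), Tspan13 (log2 change −0.23, adjusted p = 0.0823) and Tspan18 (log2 change 0.23, adjusted p = 0.109) lost their calls. Signals in the lower part of the scale, such as those of Tspan1 and Tm4sf20 in the Klf5-deleted arrays, can understate folds.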

Other observations

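Tetraspanin genes that lie next to each other did not always move alike. In the order of protein-coding genes of GRCm38.p6, Cd82 and Tspan18 are neighbours on chromosome 2 with 0 genes between them, and Cd82 fell (−0.74) while Tspan18 rose (0.23), the latter close to the threshold. Tspan9 and Tspan11, neighbours on chromosome 6, had log2 fold changes of 0.19 and 0.19 and neither passed the test. Cd81 and Tspan32 (0.04 and 0.10) and Tm4sf1 and Tm4sf4 (0.02 and −0.16) are also neighbours, and Cd151 and Tspan4 (−0.00 and 0.21) have only Polr2l between them. None of these 6 passed.

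Of 4 relatives outside the rule, chosen after the values were seen, Upk1b rose as given above and the other 3 did not pass. The photoreceptor disc tetraspanins Prph2 and Rom1 differed by −0.01 (SE 0.07) and 0.05 (SE 0.06). Sspn, the gene of sarcospan in the dystrophin complex of muscle, had signals of 8.81, 8.81 and 8.77 in the Klf5-deleted pools and of 8.69, 8.29 and 8.58 in the control pools (difference 0.28, SE 0.10, limma adjusted p = 0.0912).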
